A study of Mus musculus with 10 samples.

Results

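The 10 muscle libraries of the series were divided by their level of Myh3, the gene of embryonic myosin heavy chain, without regard to the labelled condition. A library was placed on the Myh3-high side when its Myh3 level reached 30 CPM (counts per 1000000 counts of that library, before any scaling between libraries) and on the Myh3-low side otherwise. The high side held 5 of the 10 libraries, namely Sham-1, HLI-2, HLI-3, HLI-4 and HLI-5, each named by its group and replicate number. The low side held the other 5, namely Sham-2, Sham-3, Sham-4, Sham-5 and HLI-1. All 10 samples were labelled as gastrocnemius, a large calf muscle, of mice of WT genotype, 5 with the treatment Sham and 5 with the treatment HLI. The abbreviation HLI is not explained in the labels and is read as hindlimb ischaemia, in which the artery of a leg is tied; neither time after surgery nor age nor sex is given. Whether each sample is a separate animal is not stated either, so a p-value reflects only how these samples varied, possibly for technical reasons.

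The sides cut across the labels, with 4 HLI libraries and 1 Sham library on the high side and 4 Sham libraries and 1 HLI library on the low side. Sham-1 lay with the 4 HLI libraries and HLI-1 with the 4 Sham libraries. No label gives a feature by which the assignment of these samples could be checked, so exchanged samples and real differences between samples of a group cannot be told apart. Average relative log2 CPM, a score explained below, was highest in HLI-1 over 22 macrophage markers (1.46) and 19 cell cycle genes (1.49). The 5 Sham libraries reached 0.39 and -0.02. The other HLI libraries ran from -0.69 to 1.17 and from -0.19 to 1.45, so HLI-1 stood above both groups. What these scores mean for the assignment was not tested. The values that chose the sides were, on the high side, a Myh3 level of 164 CPM in Sham-1, 111 in HLI-2, 541 in HLI-3, 152 in HLI-4 and 84.5 in HLI-5. On the low side they were 3.70 CPM in Sham-2, 5.52 in Sham-3, 4.63 in Sham-4, 4.53 in Sham-5 and 8.29 in HLI-1. The nearest libraries to the threshold were therefore HLI-5 inside it, at 84.5 CPM, and HLI-1 outside it, at 8.29 CPM. Because the sides were chosen from a measured gene, every difference between them is given below as a description without a test. The only tested contrast is HLI against Sham by label.

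Embryonic and neonatal myosin heavy chains are made by fetal and newborn muscle and are replaced by adult isoforms as fibres mature. In adult limb muscle they are known as transient products of newly formed fibres after injury, where satellite cells divide, differentiate and fuse. Myh3 encodes the embryonic and Myh8 the neonatal (perinatal) heavy chain, and Myl4 encodes an alkali light chain of embryonic muscle and of the atria.

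Totals of the estimated counts lay between 16788953 and 18525905 in high libraries and between 16556385 and 22136299 in low ones. Mitochondrial genes took 10.6% to 14.6% of the counts on the high side and 10.7% to 14.3% on the low side. The 10 most abundant genes took 14.1% to 22.0% and 17.9% to 23.3%, respectively. The labelled tissue was borne out by its defining transcripts in every library: Ckm, the muscle creatine kinase, lay between 6089 and 21491 CPM and Acta1, skeletal muscle actin, between 14343 and 39593 CPM. In such bulk samples, fewer cells of a type and less RNA per cell cannot be told apart. From here on, levels are CPM with library sizes scaled by TMM (trimmed mean of M-values).

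The stretches before the annotated starts of the 3 marker genes and of Mest, the imprinted gene described below, are shown as sequence, since the account of immature muscle below turns on these genes. Each run is 250 bases long, ends at the base before the start, and comes from RefSeq on GRCm38.p6. All 4 lie on the + strand. Capitals mark CANNTG, the E-box core to which myogenic factors such as MYOD1 and myogenin can bind; its complement has the same pattern, so both strands are covered. In Myh3 (chr11:67078050-67078299) the only match, CAGTTG, began 191 bases before the start.
Myh3: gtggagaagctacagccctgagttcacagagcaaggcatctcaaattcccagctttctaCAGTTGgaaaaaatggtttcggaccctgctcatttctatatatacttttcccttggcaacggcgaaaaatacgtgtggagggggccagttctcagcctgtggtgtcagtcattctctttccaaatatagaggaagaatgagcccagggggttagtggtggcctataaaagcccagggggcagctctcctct
In Myh8 (chr11:67276874-67277123) the only match, CAAATG, began 32 bases before the start.
Myh8: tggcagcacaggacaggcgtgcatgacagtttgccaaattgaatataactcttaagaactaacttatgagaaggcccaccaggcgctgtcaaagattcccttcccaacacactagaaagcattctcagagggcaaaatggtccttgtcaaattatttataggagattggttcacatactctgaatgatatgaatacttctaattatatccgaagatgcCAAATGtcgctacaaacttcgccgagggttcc
Myl4 (chr11:104550413-104550662) held 0 matches in this window.
Myl4: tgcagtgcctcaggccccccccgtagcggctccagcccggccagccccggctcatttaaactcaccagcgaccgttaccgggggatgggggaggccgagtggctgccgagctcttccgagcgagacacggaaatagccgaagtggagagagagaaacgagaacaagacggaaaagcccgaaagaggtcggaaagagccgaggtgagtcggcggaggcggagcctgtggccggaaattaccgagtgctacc
Mest (chr6:30733256-30733505, the first listed start) held 2, CAGCTG 135 bases and CACCTG 91 bases before the start.
Mest: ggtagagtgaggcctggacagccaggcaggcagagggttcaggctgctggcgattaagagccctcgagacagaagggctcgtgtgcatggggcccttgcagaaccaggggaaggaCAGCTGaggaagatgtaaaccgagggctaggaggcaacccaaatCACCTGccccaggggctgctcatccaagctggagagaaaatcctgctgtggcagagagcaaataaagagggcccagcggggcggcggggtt
The pattern is short and common. It was present in 66.0% of the 27025 listed promoters, in 56.9% of the 9745 promoters matched to a gene measured here, in 151 of the 250 matched promoters of genes higher on the high side without overlap (60.4%), and in 87 of the 165 of genes lower without overlap (52.7%).

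Across 12408 genes other than Myh3 with enough counts in each of the 10 libraries, 324 (2.61%) had every high library above every low library. Genes nearly absent from any library were thus left out of these shares and of the list counts. Another 204 (1.64%) had every high library below every low library, which makes 528 (4.26%) in either direction. These are called separated below; the rule drew the sides from the same libraries, so nothing is read from the shares themselves. Split by label in the same way, 81 genes (0.653%) had every HLI library above every Sham library and 114 (0.919%) below. No gene can be separated in both ways. Of the separated genes, 81 were higher (0.653%) and 8 lower (0.0645%) by at least 2-fold. The balance depended on the scaling. The share of separated genes that were higher was 61.4% with TMM, 54.1% with median-of-ratios size factors (284 higher, 241 lower), 73.6% with plain library totals (363 and 130) and 82.0% on the deposited TPM (365 and 80). The median of all genes moved from 0.01 to 0.12 with library totals and to 0.14 on TPM (log2, high minus low). The median difference of all genes was 0.01 on the TMM scale, and the middle 90% ran from -0.45 to 0.61.

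Myh8 (ENSMUSG00000055775) was the gene with the widest gap between the sides. It stood at 78.2 CPM in Sham-1, 62.5 in HLI-2, 695 in HLI-3, 83.4 in HLI-4 and 124 in HLI-5. In the low libraries it was 1.60 CPM in Sham-2, 3.11 in Sham-3, 1.43 in Sham-4, 1.72 in Sham-5 and 1.65 in HLI-1. HLI-3 was the highest by far, and HLI-1 lay inside the range of the low Sham libraries. The sides averaged 209 ± 273 and 1.90 ± 0.682 CPM (SD, n = 5 each). The difference of mean log2 CPM was 6.05, a 66.3-fold ratio, and 5.44 without HLI-3. On the deposited TPM it was 4.77.

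Myl4 (ENSMUSG00000061086) was also highest in HLI-3 and lowest on the high side in HLI-2. The high libraries held 28.3 CPM in Sham-1, 18.6 in HLI-2, 171 in HLI-3, 40.7 in HLI-4 and 28.3 in HLI-5. The low libraries held 4.41 in Sham-2, 4.39 in Sham-3, 6.69 in Sham-4, 7.09 in Sham-5 and 4.41 in HLI-1. The sides did not overlap and differed 7.48-fold. Among 8 measured genes of embryonic, neonatal or remodelling sarcomeres other than Myh3, 4 were separated higher (Myh8, Myl4, Tnnt2 and Myl6b) and 0 lower. Of all genes, 2.61% were separated and higher. The list's median difference was 0.94 (log2) against 0.01 for all genes. Tnnt2, the cardiac and embryonic troponin T, ranged from 5.54 CPM in HLI-2 to 55.0 in HLI-3 on the high side and from 1.37 in Sham-4 to 5.07 in HLI-1 on the low side, so HLI-1 came close to the high side for this gene. Myl6b, an alkali light chain of slow and embryonic muscle, was 42.6 CPM in Sham-1, 44.0 in HLI-2, 38.7 in HLI-3, 44.6 in HLI-4 and 25.5 in HLI-5, and 12.8 to 22.2 in the low libraries. Unlike Myh8 and Myl4 it did not peak in HLI-3.

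**Figure D1:**
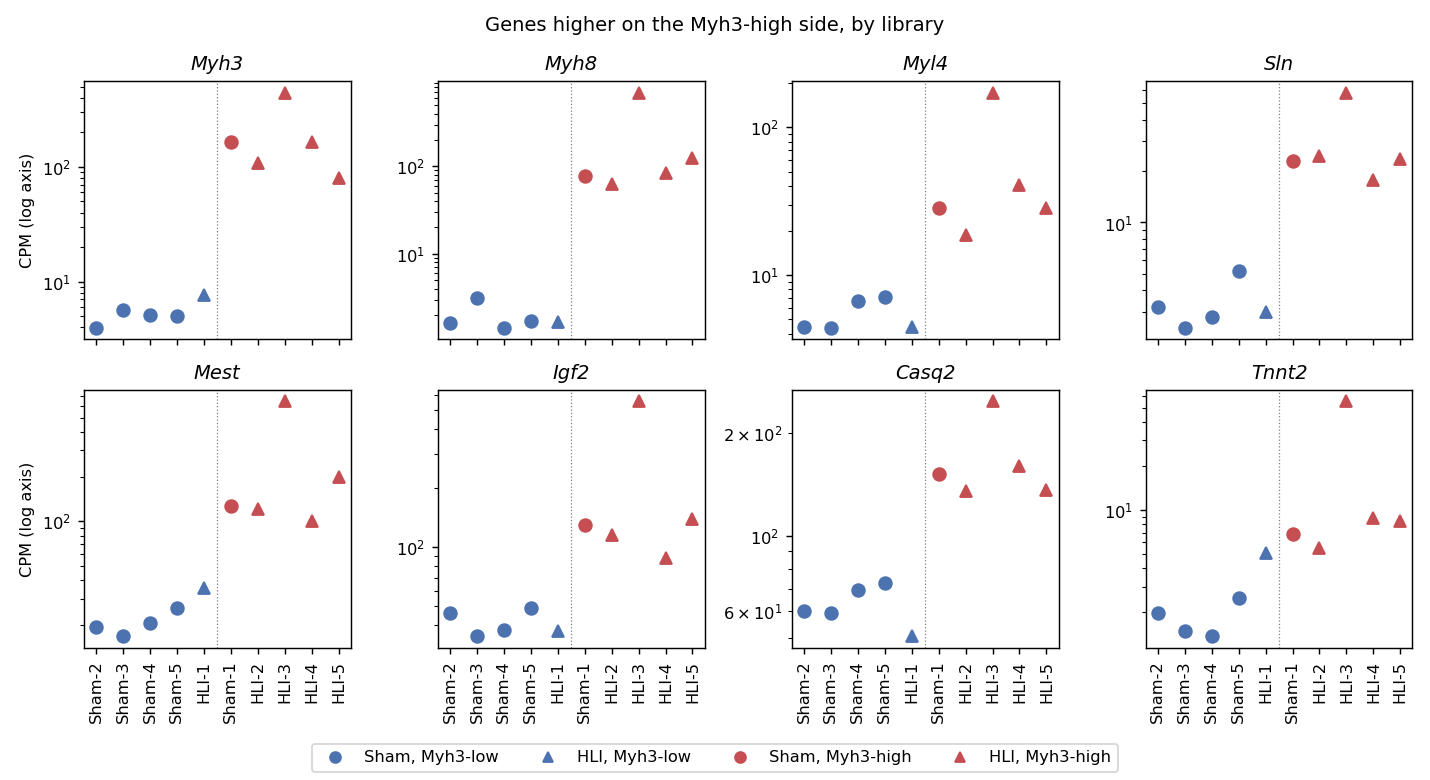
Level of 8 genes in each library (CPM with TMM-scaled library sizes, log axis), with the 5 Myh3-low libraries left of the dotted line and the 5 Myh3-high libraries right of it; circles are Sham and triangles HLI. Myh3 chose the sides; in the other 7 panels every high library also lies above every low library, and HLI-3 is the highest.

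The remaining members of that list overlapped between the sides. Actc1, cardiac actin, which immature skeletal muscle also makes, ran from 590 CPM in HLI-3 to 1993 in HLI-4 on the high side and from 311 in Sham-3 to 1694 in Sham-5 on the low side. Ankrd1, a stretch- and injury-responsive titin partner, was highest in the low libraries Sham-3 (61.0 CPM) and HLI-1 (58.7 CPM), where Myh8 was low. Xirp1, a protein of remodelling myofibrils, was at most 296 CPM on the high side and reached 425 CPM in HLI-1. The summed level of all 9 listed genes, which include Myh7b below the count filter, overlapped too (1673 to 2869 CPM against 960 to 2346).

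Sln, Casq2 and Atp1b4 were among the 15 higher genes with the widest gaps. Sln (ENSMUSG00000042045) encodes sarcolipin, a small inhibitor of the calcium pump that is abundant in fetal and slow muscle. It was 23.1 CPM in Sham-1, 24.7 in HLI-2, 57.8 in HLI-3, 17.9 in HLI-4 and 23.6 in HLI-5. The low libraries held 3.20 CPM in Sham-2, 2.41 in Sham-3, 2.80 in Sham-4, 5.17 in Sham-5 and 2.98 in HLI-1. The high libraries other than HLI-3 lay close together, and the ratio was 8.15-fold. Casq2, the cardiac and slow-fibre calsequestrin that stores calcium, was 152, 136, 248, 160 and 136 CPM in the high libraries in the order above and 60.2, 59.4, 69.5, 72.5 and 50.7 CPM in Sham-2 to Sham-5 and HLI-1. That is 2.61-fold, with 1 high library, HLI-3, far above the other 4. Other calcium-handling genes of the sarcoplasmic reticulum overlapped and were lower on average on the high side: the differences of the calcium pumps Atp2a1 and Atp2a2, of the fast calsequestrin Casq1 and of the release channel Ryr1 were -0.44, -0.35, -0.17 and -0.48 (log2). Atp1b4, a muscle protein related to the beta subunits of the sodium pump that is most abundant around birth, was 11.4 CPM or more in every high library and 3.86 or less in every low one (6.17-fold).

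Genes of fetal growth, most of them imprinted and so expressed from 1 parental allele, formed the second large group. Of 8 measured members of this list, 5 were separated and higher (Igf2, Dlk1, Peg3, Mest and Plagl1) and 0 lower. Of all genes, 2.61% were separated and higher. The list, like the others, was chosen with earlier results of these data known, so its count only describes. Its median difference was 1.87 (log2), 1.36 within Sham and 1.64 within HLI. "Within Sham" means Sham-1 minus the median of the other Sham libraries, and "within HLI" the median of the other HLI libraries minus HLI-1. Separated genes have the same sign in both by construction. H19 and Meg3 were not analysed here.

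Mest (ENSMUSG00000051855), a membrane protein with a hydrolase fold, was 127 CPM in Sham-1, 120 in HLI-2, 642 in HLI-3, 100 in HLI-4 and 197 in HLI-5. In the low libraries it was 19.4 in Sham-2, 16.7 in Sham-3, 20.5 in Sham-4, 25.8 in Sham-5 and 35.7 in HLI-1. The lowest high library, HLI-4, thus held several times the level of HLI-1, the highest low library, and the sides differed 7.91-fold. Plagl1, a zinc finger transcription factor of the imprinted gene network, was 38.6 CPM in Sham-1, 41.6 in HLI-2, 249 in HLI-3, 30.04 in HLI-4 and 50.6 in HLI-5, against 6.75 to 13.4 CPM in the low libraries (6.22-fold). Igf2, the fetal insulin-like growth factor, was 130 CPM in Sham-1, 115 in HLI-2, 554 in HLI-3, 87.7 in HLI-4 and 140 in HLI-5. Low values were 45.9 CPM in Sham-2, 35.1 in Sham-3, 37.8 in Sham-4, 48.8 in Sham-5 and 37.2 in HLI-1 (3.91-fold), and HLI-1 lay inside the Sham range.

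Dlk1, a membrane protein related to Notch ligands, was 18.0 CPM in Sham-1, 11.9 in HLI-2, 29.0 in HLI-3, 7.61 in HLI-4 and 9.24 in HLI-5, and between 0.857 and 3.83 CPM on the low side (6.59-fold). Peg3, an imprinted zinc finger gene, was 43.5 to 229 CPM on the high side and 16.2 to 24.7 on the low side (3.43-fold). Its neighbour in the same imprinted domain, Zim1, which was not on the list, was 14.8 to 65.9 against 4.24 to 7.18 CPM (4.05-fold). Zdbf2, a further imprinted gene chosen after its values were seen, was 2.98 CPM in Sham-1, 7.97 in HLI-2, 39.7 in HLI-3, 5.62 in HLI-4 and 9.02 in HLI-5, against 1.55 to 2.41 CPM; it overlapped on TPM. Here Sham-1 was the lowest high library, only just above the low side. Cdkn1c and Igf1 overlapped: Cdkn1c, an imprinted cell cycle inhibitor, was 42.9 to 136 CPM on the high side, while Sham-5 on the low side reached 49.1 CPM. Igfbp5, a binding protein for the insulin-like growth factors, had a difference of 0.05 (log2).

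**Figure D2:**
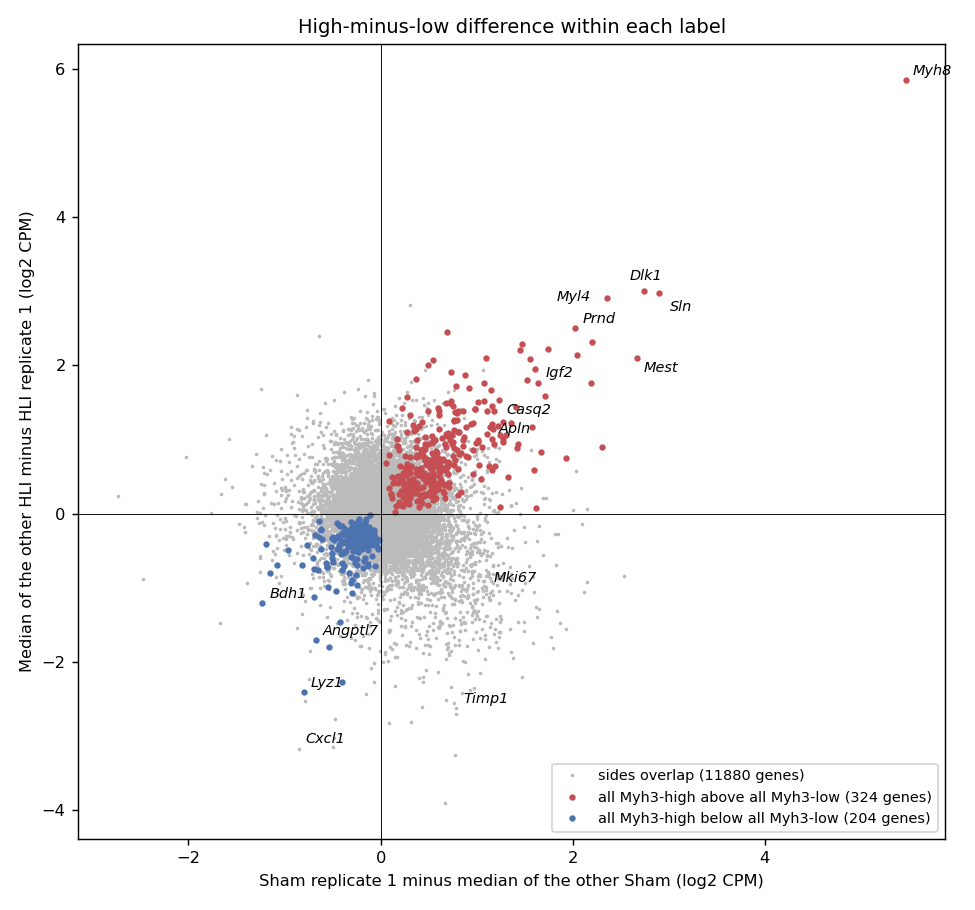
Each point is 1 of 12408 genes; the horizontal axis is Sham-1 minus the median of the other Sham libraries and the vertical axis the median of the other HLI libraries minus HLI-1 (both log2 CPM). Red marks the 324 genes with every high library above every low library and blue the 204 with every high library below; both colours are confined to 1 quadrant each by the way they were chosen, and Myh8 lies at the top right.

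Over all genes, the 2 within-label differences had the same sign in 47.8%. Myh8 was the gene farthest out in both directions, at 5.47 within Sham and 5.85 within HLI (log2). Further genes among the 15 with the widest gaps were Prnd, the prion-like protein doppel of developing vessels and testis, Tceal7, Syn2, Trp53i11, Pcdh17, a protocadherin, and Prdm1, the transcriptional repressor BLIMP1. Prnd was 39.7 CPM in Sham-1, 44.4 in HLI-2, 56.3 in HLI-3, 31.6 in HLI-4 and 42.9 in HLI-5, against 4.29 to 10.5 in the low libraries (5.24-fold). Trp53i11 was 43.2 to 63.5 CPM against 15.6 to 22.4 (2.68-fold), and HLI-3 was not its highest library. Prdm1 was 9.25 to 15.4 against 2.91 to 4.82 CPM (3.08-fold). All 15 higher genes with the widest gaps were separated under each of the 4 scalings. Of the 15 lower ones, 13 stayed separated with library totals and 11 on TPM; Ung and Prdx1 overlapped under both, and Sgsm3 and 5031439G07Rik on TPM.

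Of 17 measured myogenic regulators and satellite cell genes, 0 were separated in either direction, and the median difference was 0.05 (log2). With 4.26% of all genes separated, a count of 0 among so few genes says little about the list. Myog, the differentiation factor myogenin, was 12.3 CPM in Sham-1, 10.6 in HLI-2, 66.0 in HLI-3, 14.2 in HLI-4 and 15.7 in HLI-5. In the low libraries it was 7.80 in Sham-2, 8.04 in Sham-3, 5.26 in Sham-4, 9.67 in Sham-5 and 24.0 in HLI-1. HLI-1, low for Myh3 and Myh8, thus held more Myog than every high library but HLI-3. Pax7, the satellite cell marker, was 6.93 to 12.9 CPM on the high side and 4.79 to 9.40 on the low side. Myod1 was lower on average on the high side, at 17.9 to 31.2 CPM, and reached 41.8 CPM in Sham-3 and 37.2 in HLI-1. Mymk, the fusion protein myomaker, did not pass the count filter. It was 19.8 CPM in HLI-3 and 1.90 to 3.45 in the other high libraries, against 1.99 in Sham-5, 2.09 in HLI-1 and at most 0.533 in the others.

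Acetylcholine receptor genes, several of which immature or denervated fibres make outside the synapse, had a list median of -0.09 (log2). In a list this short, 1 separated gene among 14 measured members cannot be set apart from the 4.26% of all genes. That gene was Chrnb1, the beta subunit, at 38.4 CPM in Sham-1, 40.5 in HLI-2, 48.9 in HLI-3, 48.9 in HLI-4 and 40.3 in HLI-5, against 22.6 to 31.5 CPM on the low side (1.59-fold). Chrng, the fetal gamma subunit that is replaced at mature synapses, was below the filter. It reached 6.96 CPM in HLI-3 and 1.79 in HLI-5 and lay between 0.519 and 0.702 in the other high libraries. On the low side it was listed at 0 in Sham-3 and reached 0.937 in HLI-1, so the sides overlapped. Chrna1 was 66.7 CPM in HLI-3, and its low values on the high side, 16.8 in HLI-2 and 20.7 in Sham-1, lay within the low range of 16.6 to 27.9 CPM.

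Blood vessel genes formed the third group with many separated members. Of 24 measured endothelial markers, 10 were separated and higher (Cdh5, Tie1, Esam, Cldn5, Erg, Sox18, Robo4, Aplnr, Gpihbp1 and Ecscr) and 0 lower. The share of all genes separated and higher was 2.61%. Of these 10, Sox18 and Ecscr were not separated under every scaling: 8 stayed with median-of-ratios size factors and 9 with library totals and on TPM. The median difference was 0.37 (log2), 0.47 within Sham and 0.52 within HLI. The size of these differences was small beside those of the sarcomere genes. Cdh5, the junctional VE-cadherin, was 503 CPM in Sham-1, 509 in HLI-2, 398 in HLI-3, 372 in HLI-4 and 501 in HLI-5, against 341 in Sham-2, 256 in Sham-3, 282 in Sham-4, 344 in Sham-5 and 285 in HLI-1 (1.51-fold). HLI-4 was the lowest high library and lay only just above Sham-5. Cldn5, the tight junction protein of endothelium, was 41.3 to 65.7 CPM against 27.9 to 33.6 (1.69-fold), and Erg, an endothelial ETS factor, 32.7 to 44.4 against 18.0 to 25.9 (1.77-fold).

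Defining endothelial markers were not all among them. Pecam1 was 410 CPM in Sham-1, 372 in HLI-2, 323 in HLI-3, 281 in HLI-4 and 407 in HLI-5, against 317 in Sham-2, 243 in Sham-3, 272 in Sham-4, 282 in Sham-5 and 288 in HLI-1. The sides overlapped through HLI-4. Kdr, the main VEGF receptor, ranged from 164 to 298 CPM on the high side and 156 to 239 on the low side. Flt1, Vwf and Eng had differences of -0.33, -0.20 and -0.14 (log2). The summed level of the 24 markers was 2301 to 3111 CPM on the high side and 2078 to 2513 CPM on the low side. How far the amount of endothelial RNA moved the separated vessel genes was not tested.

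Angiogenic ligands and receptors gave 7 separated higher genes of 24 measured (Angpt2, Apln, Aplnr, Dll4, Esm1, Pdgfb and Efnb2) and 1 lower, Cxcl12. Shares over all genes were 2.61% higher and 1.64% lower. Aplnr is counted in the endothelial list too. Pdgfb overlapped with median-of-ratios size factors, and Cxcl12 with library totals and on TPM. The list's score, the average log2 CPM over its members after subtracting each gene's mean across libraries, ran from 0.05 to 0.31 on the high side and from -0.23 to -0.16 on the low side. Apln (ENSMUSG00000037010), the peptide apelin of sprouting endothelial tip cells, was 23.6 CPM in Sham-1, 29.8 in HLI-2, 27.6 in HLI-3, 25.1 in HLI-4 and 28.1 in HLI-5. Low libraries had 9.06 CPM in Sham-2, 12.7 in Sham-3, 10.6 in Sham-4, 10.4 in Sham-5 and 13.8 in HLI-1. The high libraries lay within a narrow range, the sides were well apart, and the means were 26.8 ± 2.45 and 11.3 ± 1.89 CPM (SD, n = 5 each), a ratio of 2.38-fold. Its receptor Aplnr was 160 CPM in Sham-1, 157 in HLI-2, 157 in HLI-3, 116 in HLI-4 and 133 in HLI-5, against 56.0 to 89.6 CPM (2.06-fold). HLI-3, extreme for the sarcomere genes, was not extreme for either.

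Dll4, the Notch ligand of tip cells, was 34.8 CPM in Sham-1, 37.6 in HLI-2, 27.0 in HLI-3, 34.6 in HLI-4 and 46.0 in HLI-5, against 14.1 to 24.0 CPM (1.91-fold). Esm1, a secreted proteoglycan of tip cells, was 2.93 to 4.74 against 1.72 to 2.33 CPM (1.88-fold). Angpt2, the antagonistic angiopoietin, was 13.3 to 20.1 against 8.08 to 11.7 CPM. Unc5b, a netrin receptor of tip cells chosen after its values were seen, was 32.7 to 48.2 against 13.3 to 23.3 CPM (2.06-fold). The VEGF ligand itself did not follow: Vegfa was 102 CPM in Sham-1, 101 in HLI-2, 49.7 in HLI-3, 136 in HLI-4 and 107 in HLI-5, against 69.4 to 123 CPM, a difference of -0.02 (log2). Cxcl12, a chemokine that retains leukocytes and progenitors, was 271 CPM in Sham-1, 268 in HLI-2, 199 in HLI-3, 160 in HLI-4 and 197 in HLI-5, against 296 to 369 CPM (1.52-fold lower on the high side). Its receptor Cxcr4 was 23.4 to 43.8 CPM on the high side and 6.10 to 11.1 in the low Sham libraries, but 25.7 CPM in HLI-1, above HLI-2 and HLI-4. Pericyte and smooth muscle markers had a median of 0.01 (log2) with 1 of 14 separated, against 4.26% of all genes. That gene, Mcam, overlapped with library totals and on TPM.

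**Figure D3:**
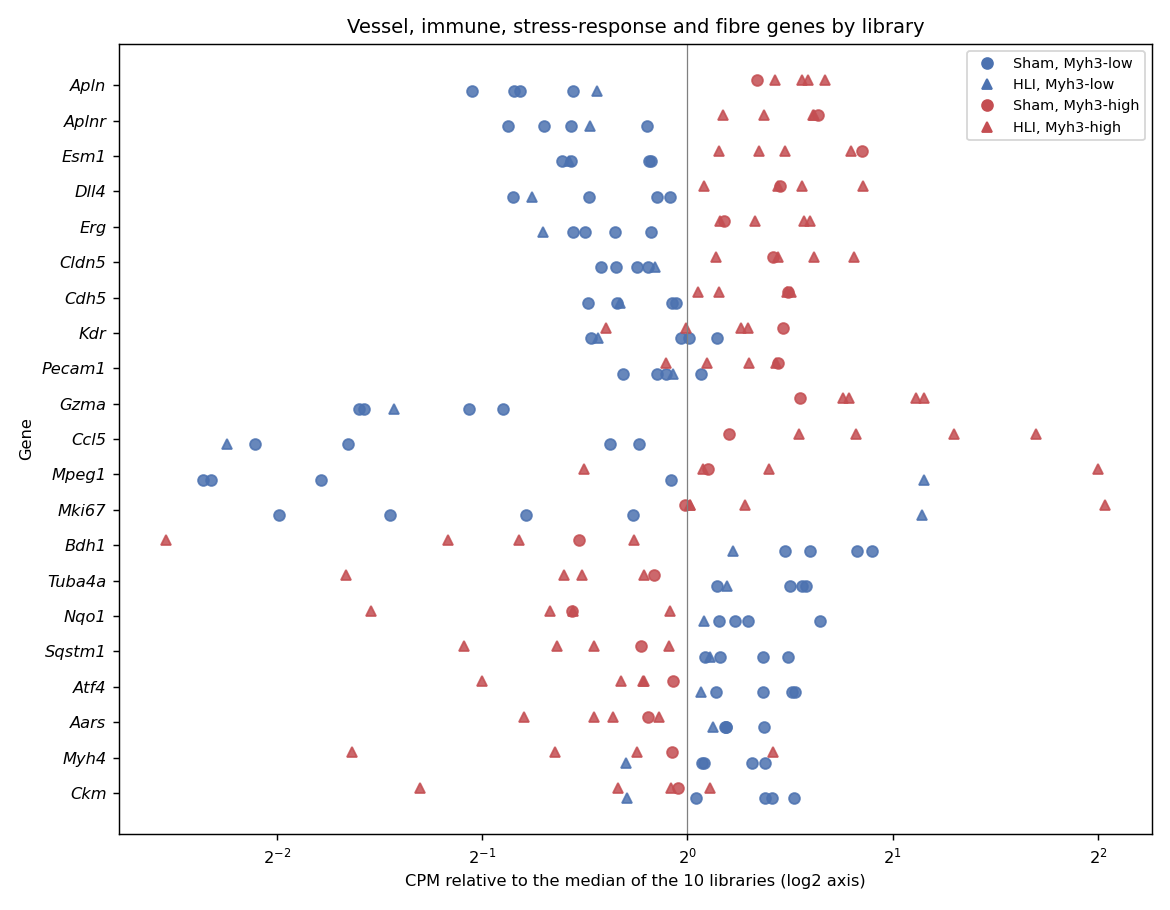
Level of each gene in each library relative to the median of the 10 libraries (log2 axis); blue are Myh3-low and red Myh3-high libraries, circles Sham and triangles HLI. Apln to Cdh5 and Gzma have all red points right of all blue points, and Bdh1 to Aars have them left. Kdr, Pecam1, Mpeg1, Mki67, Myh4 and Ckm overlap, with HLI-1 among the highest for Mpeg1 and Mki67. Ccl5 is not among the separated genes that passed the count filter, so nothing is read from its points.

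Lymphocyte and NK cell genes were at low levels throughout. Only 3 of 16 markers passed the count filter, of which 1, Gzma, was separated. This cytotoxic granule protease was 3.04 CPM in Sham-1, 4.502 in HLI-2, 4.62 in HLI-3, 3.51 in HLI-4 and 3.59 in HLI-5, against 1.11 in Sham-2, 0.697 in Sham-3, 0.687 in Sham-4, 0.994 in Sham-5 and 0.771 in HLI-1 (4.13-fold). Below the filter, Ncr1, the NK cell receptor NKp46, was 0.644 to 1.58 CPM on the high side and 0.172 or less on the low side, with Sham-5 at 0. Nkg7, Klrb1c, Lck and Cd8a, all genes of cytotoxic lymphocytes or T cells, also had no overlap gene by gene, at levels of 0.351 to 5.16 CPM against 0.0572 to 0.663. The T cell receptor genes Cd3e, Cd3g, Cd3d and Trac overlapped. These are levels of few counts per library. The 4.26% of all genes that were separated refers to genes above the filter. No such share is given for genes below it, so nothing is read from the lack of overlap there. Klrk1, an activating receptor of NK and T cells chosen after its values were seen, was 2.05 to 4.77 against 0.795 to 1.87 CPM (2.56-fold), and overlapped with library totals and on TPM.

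Interferon-stimulated genes were higher on average in all 19 measured members, with a median of 0.68 (log2). Only Gbp3 and Ifi44 were separated, and Ifi44 only with TMM or median-of-ratios scaling. That count of 2 among 19 stands beside 2.61% of all genes separated and higher. Gbp3, an interferon-inducible GTPase, was 17.6 CPM in Sham-1, 23.3 in HLI-2, 28.2 in HLI-3, 17.5 in HLI-4 and 23.7 in HLI-5, against 9.86 to 14.9 CPM (1.74-fold). HLI-4 scored -0.36 for this list, inside the low range. Irf7, a transcription factor of the interferon response, was 14.4 CPM there and 28.7 to 35.7 in the other high libraries. Cxcl9, an interferon-gamma-induced chemokine that attracts lymphocytes, was 6.90 to 19.3 against 2.81 to 4.64 CPM (2.68-fold). It was the 1 separated gene of 9 measured cytokines and chemokines, a count too small to set apart from the 2.61% of all genes. The median of that list was -0.35 (log2), or 0.15 without a filter on low counts.

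As lists, macrophage and cell division genes were highest in HLI-1 and HLI-3, 1 library of each side. Of 22 macrophage markers, 0 were separated, against 4.26% of all genes. Their median difference was 0.48 (log2) but 0.95 within Sham and -1.10 within HLI, and it was 0.83 without HLI-1 and 0.25 without HLI-3. Lyz2, the lysozyme of macrophages, was 705 CPM in Sham-1, 651 in HLI-2, 1358 in HLI-3, 385 in HLI-4 and 824 in HLI-5, against 309 in Sham-2, 648 in Sham-3, 423 in Sham-4, 283 in Sham-5 and 1551 in HLI-1. The summed markers reached 4132 CPM in the highest high library and 4524 CPM in the highest low one. Mki67, the proliferation marker, was 98.2 CPM in HLI-3, 52.8 in HLI-1 and 6.03 to 29.1 in the other libraries. Of 19 measured cell cycle genes, 0 were separated. Only 2 of 10 neutrophil markers, Csf3r and Mmp9, passed the count filter, and both were highest in HLI-1 and Sham-3. Csf3r was 26.3 and 26.1 CPM there and at most 10.8 elsewhere. Hbb-bs, an adult globin of red cells whose reads may be shared with near-identical copies, was 1443 CPM in HLI-1 and 237 to 656 elsewhere.

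Matrix genes gave a mixed picture. Of 20 measured genes of the matrix and its remodelling, 1 was separated, against 4.26% of all genes. It was Lum, and only under TMM and median-of-ratios scaling. The list's median was 0.28 (log2), 0.73 within Sham and -0.40 within HLI, and its score was high in HLI-3 (1.05) and HLI-1 (0.65) and lowest in HLI-4 (-0.79). Lum, the collagen-binding proteoglycan lumican, was 243 CPM in Sham-1, 252 in HLI-2, 409 in HLI-3, 166 in HLI-4 and 306 in HLI-5, against 106 to 151 CPM (1.98-fold). Outside the list, and chosen after their values were seen, Aspn, Igfbp3 and C1qtnf3 were at least 2-fold higher without overlap. Aspn, the proteoglycan asporin, was 95.1 CPM in Sham-1, 104 in HLI-2, 524 in HLI-3, 108 in HLI-4 and 84.8 in HLI-5, against 29.4 to 61.7 CPM (3.16-fold). Igfbp3, the main carrier of circulating insulin-like growth factors, was 87.8 to 160 against 40.0 to 55.3 CPM (2.52-fold). C1qtnf3, a secreted protein related to adiponectin, was 29.6 to 229 against 7.60 to 21.8 CPM (4.62-fold).

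Genes lower on the high side differed less. Bdh1 (ENSMUSG00000046598), the mitochondrial enzyme that interconverts ketone bodies, was 25.3 CPM in Sham-1, 16.3 in HLI-2, 6.28 in HLI-3, 30.4 in HLI-4 and 20.7 in HLI-5. Low libraries had 64.8 CPM in Sham-2, 50.6 in Sham-3, 68.0 in Sham-4, 55.2 in Sham-5 and 42.5 in HLI-1, 3.15-fold more. The means were 19.8 ± 9.22 and 56.2 ± 10.4 CPM (SD, n = 5 each). It was 1 of the 8 genes lower by at least 2-fold, the others being Angptl7, Lyz1, H2-Q10, H4c9, Osgin1, Tuba4a and Depdc7. Of these, H2-Q10 and Osgin1 overlapped with library totals and on TPM. Angptl7, a secreted angiopoietin-like protein, was 75.4 CPM in Sham-1, 60.1 in HLI-2, 27.1 in HLI-3, 9.19 in HLI-4 and 60.5 in HLI-5, against 98.9 to 173 CPM (3.43-fold). HLI-4 was the lowest here, and the log2 difference of -1.78 was -1.28 without it. Tuba4a, an alpha tubulin abundant in muscle, was 163 to 459 CPM against 569 to 768 (2.04-fold). Lyz1 and H4c9 have near-identical relatives, another lysozyme and other histone H4 genes, so their counts are uncertain.

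The 15 lower genes with the widest gaps included Nqo1, Sqstm1 and Prdx1, which are known targets of NRF2, the activator of antioxidant genes, and Aars and Eif4ebp1, which ATF4 induces when the integrated stress response slows translation. Lists for these pathways were therefore drawn up after the values were seen, and their counts only describe. Of 17 measured NRF2 targets, 7 were separated and lower (Nqo1, Txnrd1, Prdx1, Sqstm1, Osgin1, Gsr and Cat) and 0 higher. The share of all genes separated and lower was 1.64%. The list's median was -0.41 (log2). Nqo1, Sqstm1 and Prdx1, which had prompted the list, are counted among the 7. With library totals and on TPM the 7 became 2, Nqo1 and Sqstm1, both of which had prompted the list. Nqo1, a quinone reductase, was 10.6 CPM in Sham-1, 10.7 in HLI-2, 5.40 in HLI-3, 14.8 in HLI-4 and 9.89 in HLI-5, against 16.6 to 24.7 CPM (1.94-fold). Sqstm1, the autophagy receptor p62, was 471 CPM in Sham-1, 401 in HLI-2, 259 in HLI-3, 518 in HLI-4 and 354 in HLI-5, against 584 to 774 CPM (1.67-fold). Both were separated under all 4 scalings. Hmox1, another NRF2 target that macrophages also make in quantity, was 295 CPM in HLI-1 and 111 in Sham-3 and at most 51.9 elsewhere.

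Of 14 integrated stress response genes, 3 were separated and lower (Atf4, Atf5 and Eif4ebp1) under each scaling. Eif4ebp1 had prompted this list, and Aars the list of synthetases below. Atf4, its transcription factor, was 141 CPM in Sham-1, 127 in HLI-2, 74.0 in HLI-3, 128 in HLI-4 and 119 in HLI-5, against 155 to 213 CPM (1.61-fold). Of 18 cytosolic aminoacyl-tRNA synthetases, which load amino acids onto tRNA, 7 were separated and lower, 5 with library totals and 3 on TPM. Aars, for alanine, was 96.4 CPM in Sham-1, 85.8 in HLI-2, 63.3 in HLI-3, 100 in HLI-4 and 80.3 in HLI-5, against 120 to 143 CPM (1.51-fold). The sides were narrow and apart. Of 14 subunits of the 20S proteasome 5 were separated and lower, and 0 of these 5 stayed so with library totals or on TPM. Of 21 heat shock and chaperonin genes 6 were, and 2 and 1 under those scalings. Beside these list counts, 1.64% of all genes were separated and lower with TMM and 1.94% with median-of-ratios size factors. The share was 1.05% with library totals and 0.645% on TPM.

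The scores of the fast and slow fibre lists were lowest in HLI-3 (-1.04 and -1.14). Of 18 fast fibre genes 0 were separated, against 4.26% of all genes, and 17 were lower on average, with a median of -0.42 (log2). That median was -0.19 without HLI-3, and 0.22 within HLI. Myh4, the fastest adult myosin, was 31114 CPM in Sham-1, 27640 in HLI-2, 10573 in HLI-3, 43706 in HLI-4 and 20953 in HLI-5, against 26586 to 42593 CPM. HLI-4, high for Myh3, thus held the most Myh4 of all libraries. All 15 glycolysis and glycogen genes were lower on average, by a median of -0.36, or -0.17 without HLI-3, and 0 were separated. The medians of 24 respiration genes and 17 fatty acid genes were -0.20 and -0.29, with 0 separated in each; without HLI-3 the first was -0.06. Within HLI the signs were opposite, at 0.21 with 24 of 24 respiration genes above 0 and 0.14 with 12 of 17 fatty acid genes. Of 12 slow fibre genes, Casq2 was separated higher and Tpm3 lower, against 2.61% and 1.64% of all genes. Tpm3, slow tropomyosin, was 177 to 303 CPM against 314 to 365 (1.31-fold), and overlapped on library totals and TPM. Nos1, the neuronal nitric oxide synthase of the fibre membrane, chosen after its values were seen, was 23.4 to 66.5 against 74.0 to 125 CPM (1.94-fold), and overlapped on TPM.

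**Figure D4:**
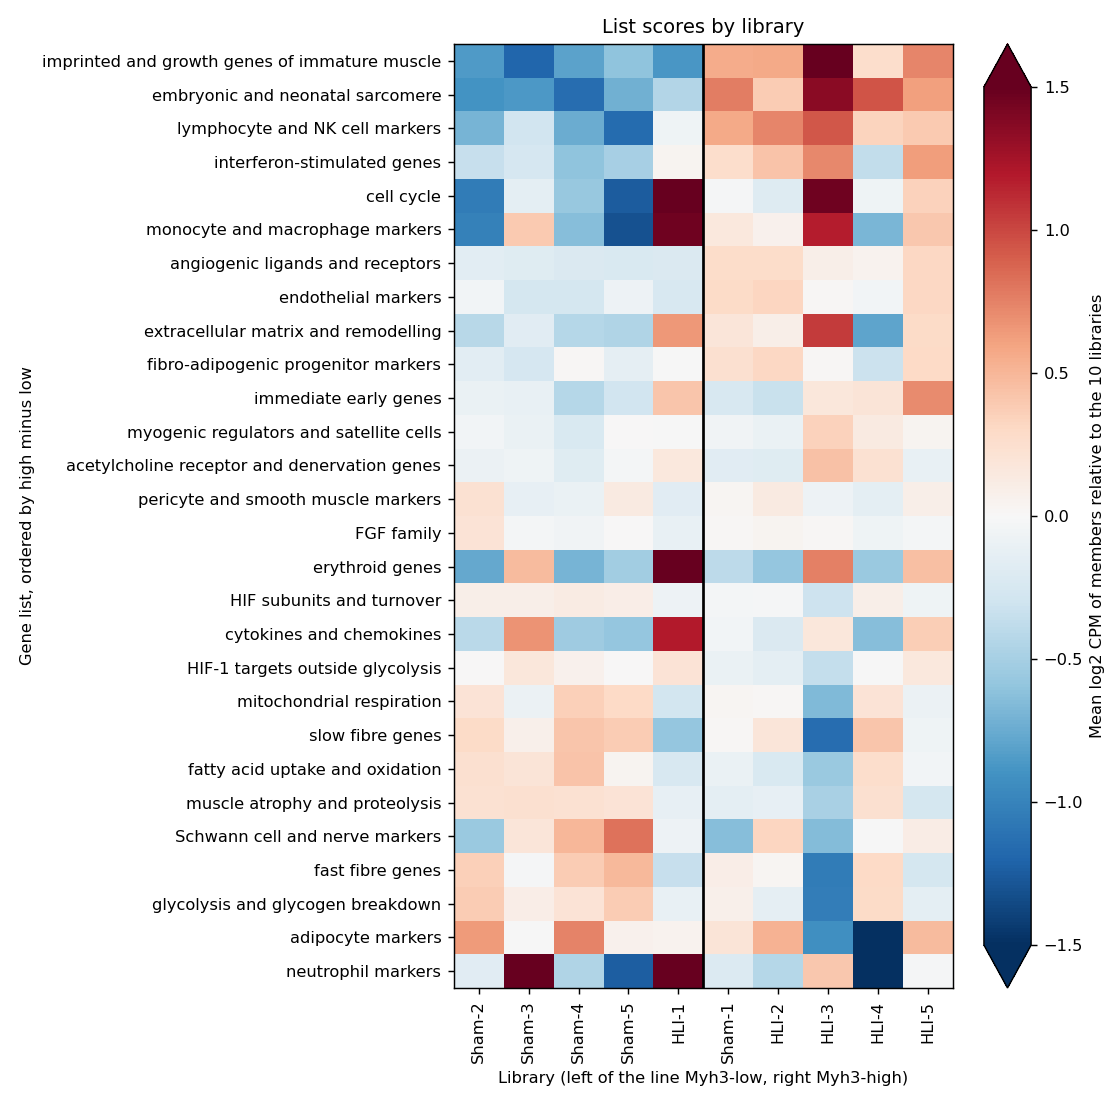
Score of 28 gene lists in each library: the average log2 CPM of the measured members after subtracting each gene's mean across libraries, with colours saturated beyond 1.5 in either direction and Myh3-low libraries left of the line. The imprinted, embryonic sarcomere, lymphocyte and angiogenic lists are higher in every library right of the line, while the macrophage, cell cycle and erythroid lists are highest in HLI-1 or HLI-3 and the fibre lists are lowest in HLI-3.

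Markers of other cell types gave counts that, in lists this short, cannot be set apart from the 4.26% of all genes. Fibro-adipogenic progenitor markers had 1 of 12, Lum. Of 9 adipocyte markers Plin4 was separated lower, at 48.5 to 181 against 191 to 300 CPM, and overlapped with library totals and on TPM. The adipocyte score was 0.53 in HLI-2 and 0.48 in HLI-5 but -0.92 in HLI-3 and -1.77 in HLI-4. Of 11 Schwann cell and nerve markers 0 were separated, and the lowest scores were in HLI-3 (-0.65), Sham-1 (-0.63) and Sham-2 (-0.56), libraries of both sides. Of 15 atrophy and proteolysis genes Sqstm1 and Ubb, a ubiquitin gene, were separated lower, Ubb not with library totals or on TPM. The Y-linked gene Ddx3y was present in every library at 30.4 to 87.7 CPM. Immediate early genes had 0 of 9 separated.

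The series concerns FGF13 and HIF-1α, and their genes did not divide along the sides. Fgf13, a fibroblast growth factor homologous factor that stays in the cell, was 25.9 CPM in Sham-1, 22.3 in HLI-2, 17.6 in HLI-3, 39.3 in HLI-4 and 22.1 in HLI-5, against 22.2 to 31.6 CPM. HLI-3 and HLI-4, both high for Myh3, were its lowest and highest libraries. Hif1a was 57.8 to 120 CPM on the high side and 37.3 to 105 on the low side. Of 12 genes of HIF subunits and their turnover 0 were separated, and of 17 HIF-1 targets outside glycolysis 1 was, P4ha1, a collagen prolyl hydroxylase, at 60.2 to 80.9 against 82.6 to 96.1 CPM. That gene overlapped on library totals and TPM. Of 13 FGF family genes Fgf11 was separated higher, at 8.54 to 18.1 against 5.84 to 8.43 CPM, but not with median-of-ratios size factors. With 4.26% of all genes separated, counts this small say little about the HIF and FGF lists.

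Tested by label, HLI against Sham, 0 of 13404 genes were called in either direction by edgeR's quasi-likelihood test (Benjamini-Hochberg adjusted p under 0.05), and 2262 had an unadjusted p under 0.05. DESeq2 called 38 higher and 7 lower. For the genes with the widest gaps, the label contrast was in the direction of the sides but smaller. The splits differ only in where Sham-1 and HLI-1 stand, and separated genes have those libraries on opposite sides. On a single measure, the smaller size would therefore follow from how the genes were chosen. The label values are fold changes fitted by edgeR, while the side values are differences of mean log2 CPM. Across these unlike measures the order need not hold: Tnnt2, also separated, was 2.54 by label and 2.25 by side. Nothing is read from the sizes. The log2 fold change of Myh8 was 3.49 (SE 1.45, edgeR adjusted p = 0.292) by label against a difference of 6.05 by side. For Mest it was 2.38 by label (edgeR adjusted p = 0.290) against 2.98, and for Apln 0.90 (edgeR adjusted p = 0.290) against 1.25. For Dlk1, where Sham-1 was the second highest library, it was 1.08 (edgeR adjusted p = 0.439) against 2.72. Both contrasts use all 10 libraries, and neither contrast is independent of the other.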

How the data were processed

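Poly(A) RNA of 10 gastrocnemius samples was sequenced as paired ends, per the labels' protocols, which also mention adipose material; the series text speaks of cells, so handling is uncertain. Tools named in the submitters' processing notes are HISAT2 2.0, Bowtie 0.12.2 and the build mm8, with no roles; how reads were counted, on which annotation and with which strand setting is not given in the sources used here. Overlapping genes and near-identical copies, such as myosin heavy chain, globin or histone genes, may therefore share reads. The authors deposited estimated counts, of which 93.4% are whole numbers, and TPM values, both named so per the file headers. All per-sample columns were used.

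The members and gene lists were chosen with earlier results of these data known. Counts were rounded, scaled by TMM in edgeR 4.0.16 (R 4.3.3) and expressed as CPM. Genes needed a count minimum of 10, at the median library size, in each of the 10 libraries without regard to group. This filter (filterByExpr, total minimum of 15) kept 12409 of 21956, and 995 more passed by label only. Differences are of mean log2 CPM with a prior count of 2, and folds are their antilogs. Myh3 was left out of all counts. Named genes were Myh3, Myh8, Myl4, Fgf13 and Hif1a, the 15 per direction with the widest gap between sides where the higher side averaged 5 CPM or more, and per list up to 3 separated members or else the 2 with the largest difference; others are said to be chosen later or belong to a list. HLI was tested against Sham with edgeR's quasi-likelihood test, and with DESeq2 1.42.0 as an alternative. For the 29 lists, 0 members passed that test. Other alternatives were scaling, filter, prior count, threshold and leaving out each library. Promoters come from a RefSeq table of GRCm38.p6, matched by symbol for 9745 of 12402 gene symbols, and bear no coordinates from the authors' build.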

Additional observations from a re-analysis of the deposited data

Results flagged for a closer look

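Within each side, the highest or lowest library was compared with the other 4 by Dixon's gap ratio, for the list scores and the named genes. Of 206 groups of 5 tested, 23 had a library beyond the critical value of 0.710. Chance alone flags about 1 in 20 independent groups. These groups share libraries, and many genes were chosen by their gap between the sides. No excess is therefore read from the count. HLI-3, which also had the highest Myh3 level (541 CPM), accounted for 14 of the 23.

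On the high side HLI-3 stood above the other 4 libraries for Myh8 (695 CPM), Plagl1 (249 CPM), Casq2 (248 CPM), Hif1a (120 CPM), Mki67 (98.2 CPM), Myog (66.0 CPM), Atp1b4 (62.2 CPM), Sln (57.8 CPM), Kif11, a mitotic kinesin (21.4 CPM), and Fgf11 (18.1 CPM), and for the imprinted gene list, with a score of 2.20. It stood below them for Plin4 (48.5 CPM), Tmem199 (7.05 CPM) and Sgsm3 (5.74 CPM). Other single libraries on that side were HLI-5 for Myl6b (25.5 CPM) and HLI-4 for Mmp9, a neutrophil and macrophage protease (1.70 CPM), both below the rest.

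On the low side HLI-1 stood apart from the 4 Sham libraries for the matrix list (score 0.65), for the lists of HIF subunits and turnover (score -0.078) and of atrophy and proteolysis (score -0.12), and for Prdx1 (385 CPM). Sham-2 stood above the rest for Aars (143 CPM) and Fgf11 (8.43 CPM), and Sham-3 for Myh8 (3.11 CPM).

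For the cell cycle list, Sham-1 scored above the other Sham libraries, while the median of the other HLI libraries lay below HLI-1 by -1.35. The sign of the difference between Myh3-high and Myh3-low libraries was therefore opposite within the labels; this difference was not tested.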

How the results depend on the processing

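Thresholds of 10 and 50 CPM gave the same sides. Leaving out each library can only add separated genes on a fixed scale, and the counts ran from 357 to 766 higher and from 221 to 506 lower; they moved by over 1.5 times without Sham-1 (316 lower), Sham-3 (569 higher), Sham-4 (314 lower), HLI-1 (560 and 428) and HLI-4 (766 and 506). Genes separated and lower fell from 204 to 130 with library totals and to 80 on TPM. Of the 528 separated genes, 480 were still separated with median-of-ratios size factors, 299 with library totals and 225 on TPM. List medians moved by less than the spread between libraries in 456 comparisons with an alternative and by more in 8. These were the lymphocyte and NK list (0.91, and 1.39 without a filter or 1.79 with the filter by label, an alternative chosen after seeing the data), the angiogenic list (0.31, and 0.43 with library totals or 0.45 on TPM), the FGF list (0.03, and 0.15 or 0.16) and, on TPM, the lists of HIF turnover (-0.15, and 0.048) and of HIF-1 targets (-0.13, and 0.054); the cause was not tested. The sign of the median changed under 1 or more alternatives for the FGF, pericyte, erythroid, acetylcholine receptor and both HIF lists, and for the cytokine list without a filter (-0.35, and 0.15). For HLI against Sham, DESeq2 called 45 genes and every edgeR alternative 0. With the replicate number as a block edgeR called 0 (2986 at an unadjusted p under 0.05). Deviations of same-numbered samples correlated across genes at between -0.00898 and 0.275. In no same-numbered pair was each sample the best match of the other, so the numbers were not taken to pair samples. Genes at a few counts per library, such as the NK cell genes, are limited by depth.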
